A study of Arabidopsis thaliana with 15 samples.

Results

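The transcripts of a pair of Arabidopsis thaliana lines were compared that differ in opposite ways in the transcription factor gene NAC052: a line in which the endogenous gene carries a frameshift (the CRISPR line) and a line that carries an extra, promoter-driven copy of the coding sequence (the GLDT::NAC052 line). The 6 libraries of these lines, 3 per line, were taken by their labels from the 15 libraries of the series. All 15 entered one model, so that the spread between libraries was estimated from all 5 lines, and the values given below are those of the 6 libraries unless another line is named. The question the comparison answers is which functions differ between loss and excess of NAC052, and in which direction.

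Every line of the series was built in the same background, ecotype Col-0 carrying a green fluorescent protein with a chloroplast transit peptide under the bundle-specific GLDPA promoter of Flaveria trinervia. That background without any further construct is the reference line. The CRISPR line carries 1 inserted nucleotide, made with Cas9, in the first exon of NAC052. The GLDT::NAC052 line keeps the endogenous gene and has the full coding sequence behind the bundle-specific GLDT promoter of Flaveria trinervia, integrated at random. The other construct, GLDT::5'truncatedNAC052, has the same promoter in front of a coding sequence that lacks its 5' end, and it also keeps the endogenous gene. The fifth line, from activation tagging, is not described here. Complete rosettes of 28-day-old plants grown in soil under long days were used for every library, so that a bundle-specific promoter was read through the RNA of the whole rosette. Neither the number of plants per library nor the generation of the plants is given in the sources used here, and each construct is represented by 1 line, so that the line and its transgene cannot be told apart. In whole-rosette RNA, fewer cells of a type and less RNA per cell cannot be told apart either.

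NAC052 belongs to the NAC family of plant transcription factors. With its neighbouring paralogue NAC050 it binds JMJ14, a demethylase that removes an activating methyl mark from histone H3, and this module represses transcription and takes part in post-transcriptional gene silencing. Much of the defence of a rosette is organised by a pair of hormones, salicylic acid against pathogens that feed on living cells, and jasmonate against wounding, herbivores and pathogens that kill the tissue. Abscisic acid and the CBF factors direct the responses to drought and cold.

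The read counts per gene summed to between 28074380 and 38579309 per library over the series. The CRISPR libraries held 32441664, 38355674 and 37133553 counts and the GLDT::NAC052 libraries 38579309, 38075043 and 36543399. According to the column headers, both lines and the GLDT::5'truncatedNAC052 line were sequenced on lane 8 and the reference line on lane 1. Pearson's r of log2 CPM (counts scaled to the size of the library) across genes was 0.985 to 0.987 between CRISPR libraries, 0.975 to 0.984 between GLDT::NAC052 libraries and 0.930 to 0.940 between the lines, which is a description across genes that are not independent. Among marker lists, mesophyll, guard cell, epidermis and phloem genes held no called member by edgeR, DESeq2 or limma and between 1 and 2 each at an unadjusted p under 0.05, while 1 of 3 bundle sheath markers and 4 of 4 xylem markers were called, as given below. The 3 shoot meristem markers were at 0 in all 6 libraries. Values are scaled counts, that is, deposited counts divided by the library's effective size (its total corrected by the trimmed mean of M values, TMM) and multiplied by the median effective size. A log2 difference is the CRISPR line minus the GLDT::NAC052 line from edgeR's quasi-likelihood fit, and p-values were adjusted with the Benjamini-Hochberg method over all 19663 genes tested. A gene is termed called where the adjusted p was under 0.05 and the difference more than 2-fold. These p-values measure only the spread between the libraries.

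Of 19663 genes tested, 2537 were called, which is 12.9%. The CRISPR line was higher for 1024 of them (5.21%) and lower for 1513 (7.69%). The median log2 difference of all genes was -0.00. Differences of more than 8-fold were also more frequent among the genes lower in the CRISPR line, 225 against 72. The libraries of the lines did not overlap for 97.9% of the called genes and for 53.0% of all genes tested. A lack of overlap, where given below for a called gene, thus adds little to the call. The called genes were spread over the 5 chromosomes, with between 12.71% and 13.44% of the tested genes of each called.

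The targeted gene was read first. NAC052 (AT3G10490, chr3:3267825-3271202, in RefSeq TAIR10.1) had scaled counts of 801, 725 and 815 in the CRISPR libraries and 10091, 980.1 and 5948 in the GLDT::NAC052 libraries. The libraries did not overlap, but GLDT::NAC052 replicate 2 lay close to the CRISPR libraries while replicates 1 and 3 were several times higher. The gene was called lower in the CRISPR line (log2 difference -2.86, SE 0.57, edgeR adjusted p = 0.00125), and two-sided exact permutation of the 6 values gave p = 0.1, the smallest that 3 against 3 allows. Without GLDT::NAC052 replicate 2 the log2 difference was -3.36, and without replicate 1 it was -2.14, with the call kept both times. The reference line had 710.0, 742 and 702 and the GLDT::5'truncatedNAC052 line 902, 2379.8 and 1892. The CRISPR libraries thus lay at the level of the reference line. A 1-nucleotide insertion does not change how a read is counted, so these counts check the excess in the GLDT::NAC052 line and not the loss in the CRISPR line.

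NAC050, which lies next to NAC052 and is similar to it in sequence, so that the counting could have divided some reads between them, had 685, 566 and 651 in the CRISPR and 396, 919.9 and 568 in the GLDT::NAC052 libraries. The libraries overlapped and the difference was 0.01 (SE 0.21, edgeR adjusted p = 0.967), with an exact permutation p of 1. JMJ14 had 1519.5, 1429.8 and 1382 against 1339, 1299 and 1253, a difference of 0.15 with an edgeR adjusted p of 0.072 and an exact permutation p of 0.1. NAC053, the next tested gene on the other side of NAC052 and a regulator of proteasome genes, was not called either (log2 difference 0.41). Of the 3 tested genes on each side of NAC052, SCPL7 and LGO were called higher in the CRISPR line (1.32 and 1.24).

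**Figure D1:**
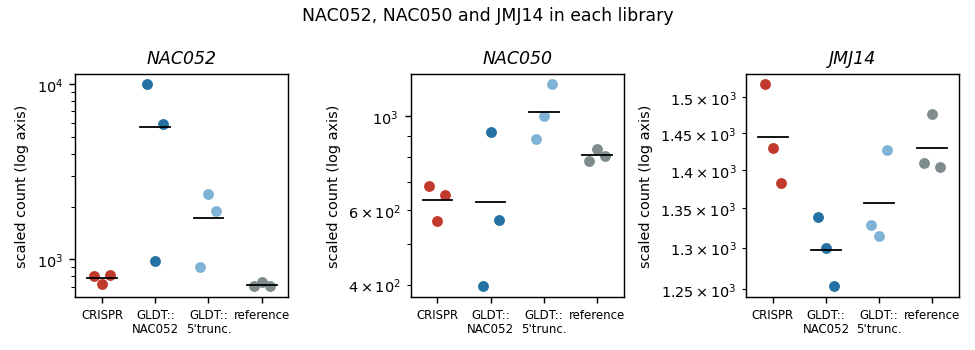
Scaled counts (log axis) of NAC052, NAC050 and JMJ14 in each library of 4 lines, with 1 point per library and the line mean as a bar. NAC052 reached 10091 and 5948 in replicates 1 and 3 of the GLDT::NAC052 line but 980.1 in replicate 2.

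Jasmonate synthesis stood lower in the CRISPR line, or higher in the GLDT::NAC052 line, along nearly the whole pathway. Of 13 genes tested, 10 were called lower in the CRISPR line and 0 higher, with a median log2 difference of -2.46 beside -0.00 over all genes. DAD1, a phospholipase that releases the fatty acid substrate, was nearly unread in the CRISPR line, with 1, 4.2 and 0.9 against 98.9, 204 and 399 (log2 difference -6.70, SE 0.78, edgeR adjusted p = 4.27e-05). LOX3, a lipoxygenase that oxygenates it, had 1170.2, 997 and 1014 in the CRISPR libraries and 9982, 19733 and 18032 in the GLDT::NAC052 libraries (log2 difference -3.91, SE 0.51, edgeR adjusted p = 5.2e-05). AOS, the allene oxide synthase that commits the product to jasmonate, had 8868, 10882 and 7026 against 36132, 61889 and 55766 (log2 difference -2.52, SE 0.33, edgeR adjusted p = 4.56e-05). For all of these genes the lowest GLDT::NAC052 library exceeded the highest CRISPR library by more than 3-fold.

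The later steps differed in the same direction. The allene oxide cyclases AOC1 and AOC3, which fix the stereochemistry of the molecule, differed by -3.44 and -4.06 on the log2 scale. OPR3, the peroxisomal reductase, had 2602, 3198 and 3174 against 11397, 18287 and 19815, and ACX1, an acyl-CoA oxidase that shortens the side chain, had 3162, 3325 and 3466 against 8485, 9436 and 12163, without overlap. JAR1, which joins jasmonate to isoleucine and so makes the active hormone, had 1448, 1526 and 1622 against 5300.0, 10009 and 11382 (log2 difference -2.54, SE 0.25, edgeR adjusted p = 5.5e-06). The closely related copies AOC1, AOC2 and AOC3 share sequence, so that the authors' counting could have divided some reads among them.

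Genes that respond to jasmonate and genes that dispose of it followed the same pattern. Of 21 tested, 16 were called lower in the CRISPR line and 1 higher, with a median of -1.73. CYP94B3, a cytochrome P450 that oxidises the active hormone, was the most different, with 7.1, 43.2 and 7.2 against 3118, 6005 and 6159.6 (log2 difference -7.99, SE 0.95, edgeR adjusted p = 2.3e-05). ST2A, a sulfotransferase of hydroxyjasmonate, had 53.7, 167 and 114 against 6499, 9101 and 11624 (log2 difference -6.33, SE 0.63, edgeR adjusted p = 6.25e-06). JMT, which makes the volatile methyl ester, had 40.5, 82.2 and 57.1 against 601, 893 and 725 (log2 difference -3.61, edgeR adjusted p = 4.78e-05). Enzymes that make, oxidise, sulfate and methylate the hormone were thus all higher in the GLDT::NAC052 line.

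MYC2, the factor that activates jasmonate targets, had 1914, 2435 and 1649 in the CRISPR and 5978, 9349 and 8939.9 in the GLDT::NAC052 libraries (log2 difference -2.02, edgeR adjusted p = 0.0196). The JAZ repressors, which hold MYC2 inactive until the hormone removes them and which are themselves jasmonate targets, were called lower for JAZ1, JAZ2, JAZ3, JAZ5, JAZ6, JAZ7, JAZ8, JAZ9 and JAZ10, with log2 differences between -2.77 and -1.41. VSP2, a vegetative storage protein and a classical jasmonate marker, went the other way with 1917, 7115 and 1209.8 against 263, 308 and 491 (log2 difference 3.27, edgeR adjusted p = 0.0282). Its CRISPR replicate 2 was far above the other libraries. The call was lost without that library (log2 difference 2.15, edgeR adjusted p = 0.143) and also without any one GLDT::NAC052 library. The same model compared each line with the GLDT::5'truncatedNAC052 line, whose 3 libraries both comparisons share. Against it, 10 of the 13 synthesis genes were called higher in the GLDT::NAC052 line (median 1.89, beside 1.49% of all genes), and 3 were called lower and 1, the lipoxygenase LOX4, higher in the CRISPR line (median -0.83, beside 4.68% of all genes lower and 3.40% higher).

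Cold and dehydration proteins were mostly lower in the CRISPR line. Of 23 tested genes, 20 were called lower in the CRISPR line and 1 higher, with a median log2 difference of -2.21. RD29A, a hydrophilic protein used as a marker of drought and cold, had 454, 2063 and 1221 in the CRISPR libraries and 58426, 75495 and 63986 in the GLDT::NAC052 libraries (log2 difference -5.72, SE 0.63, edgeR adjusted p = 1.35e-05). GOLS3, a galactinol synthase that starts the making of raffinose sugars, had 9.1, 50.8 and 51.7 against 2169, 2976 and 1741 (log2 difference -5.91, SE 0.60, edgeR adjusted p = 7.58e-06). KIN1, a small cold-induced protein, had 26.3, 178 and 68.9 against 2339.9, 2347 and 2627 (log2 difference -4.72, SE 0.60, edgeR adjusted p = 3.93e-05). The groups were apart by about an order of magnitude or more in each of these genes.

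The dehydrins, which protect membranes and proteins in drying cells, shared the direction: COR47 differed by -3.24, ERD10 by -3.65 and LTI30 by -3.83. The membrane peptide RCI2B, with 13.2, 2.5 and 4.5 against 149, 122 and 133, and the lipid-body protein RD20, with 331, 449.8 and 417 against 4881, 7874 and 8405, were lower in every CRISPR library. P5CS1, the enzyme that makes proline under water stress, was the exception, with 5013, 6749 and 5699 against 2134, 2560.2 and 1906 (log2 difference 1.40, edgeR adjusted p = 0.00248). The CBF factors that switch on cold genes were lower as well. CBF3 had 25.3, 37.3 and 22.7 against 157, 215 and 258 (log2 difference -2.87, edgeR adjusted p = 2.54e-05), and CBF1 and CBF2 differed by -2.63 and -2.06. In the GLDT::5'truncatedNAC052 line RD29A had 24086, 15263 and 37225 and CBF3 267, 117 and 232, and in the reference line they had 3234, 14381 and 6979 and 115, 171 and 88.9.

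Against the GLDT::5'truncatedNAC052 line, 17 of the 23 cold and dehydration genes were called lower in the CRISPR line (median -1.81), and 5 were called higher in the GLDT::NAC052 line (median 0.56).

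Abscisic acid genes moved less uniformly, with 7 of 26 called lower in the CRISPR line, 1 called higher and a median of -0.40. NCED3, the rate-limiting enzyme of synthesis under drought, had 108, 133 and 155 against 620.3, 750.2 and 659 (log2 difference -2.35, edgeR adjusted p = 3.48e-06). The hydroxylases that inactivate the hormone, CYP707A1, CYP707A3 and CYP707A4, were lower too (log2 differences -2.55, -1.03 and -2.20), while CYP707A2 was higher (1.58). HAI1, a phosphatase induced by the hormone, differed by -3.42 and ABI5, a bZIP factor of the pathway, by -2.17. DDF1 and tny, both annotated as integrase-type DNA-binding proteins, were chosen here after their values were seen. They had 0, 3.4 and 0 against 29, 57.5 and 148 and 11.1, 15.2 and 13.6 against 567, 737 and 268.

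Salicylic acid genes differed in the opposite direction. Of 25 genes tested, 12 were called higher in the CRISPR line and 0 lower, with a median log2 difference of 1.17. PR1, the secreted protein used as the marker of the pathway, had 40994, 29922 and 30485 in the CRISPR libraries and 137, 319.9 and 691 in the GLDT::NAC052 libraries (log2 difference 6.46, SE 0.99, edgeR adjusted p = 0.000171). PR2, a glucanase, had 33855, 28974 and 23906 against 2909, 4042 and 9128, and PR5, a thaumatin-like protein, had 21384, 17270.4 and 14609 against 1505, 2191 and 3561 (log2 differences 2.43 and 2.88). No library of one line overlapped the other line in any of these genes.

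The steps that make the hormone and that control it were higher too. ICS1, the isochorismate synthase, had 3484, 2668 and 3400.2 against 548, 717 and 2066, and PBS3, which conjugates isochorismate, had 1532, 1005 and 1386 against 125, 194 and 638 (log2 difference 2.03, edgeR adjusted p = 0.00464). SARD1 and CBP60G, the factors that activate ICS1, differed by 1.61 and 1.82, and the salicylic acid receptor NPR4 by 1.46 with 1155, 1104 and 1081 against 366, 381 and 465. GLDT::NAC052 replicate 3 was the highest of its line in all of these genes. Without it, 19 members were called higher in the CRISPR line.

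In the GLDT::5'truncatedNAC052 line PR1 had 14.5, 25.1 and 134 and in the reference line 417, 20.2 and 36.3, so that the CRISPR libraries were the only ones of the 4 lines above 691. Against the GLDT::5'truncatedNAC052 line, 15 of the 25 were called higher in the CRISPR line (median 1.89, beside 3.40% of all genes). In the GLDT::NAC052 line edgeR called none in either direction (median 0.37), and at an unadjusted p under 0.05 there were 7 higher and 1 lower.

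**Figure D2:**
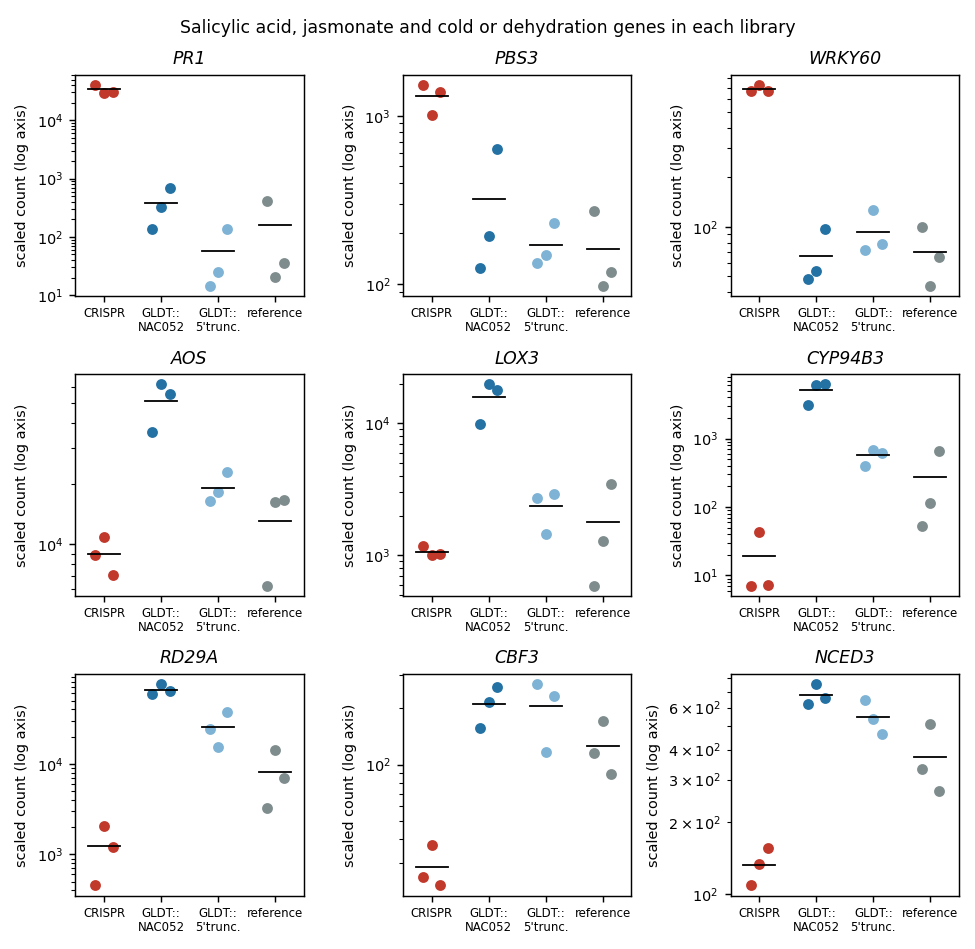
Scaled counts (log axis) per library of 3 salicylic acid genes (top row), 3 jasmonate genes (middle row) and 3 cold or abscisic acid genes (bottom row), with 1 point per library and the line mean as a bar. The CRISPR libraries lie above all others for PR1, PBS3 and WRKY60 and below all GLDT::NAC052 libraries for the other 6 genes.

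Receptor kinases were more often called higher than lower in the CRISPR line, and WRKY factors were called in both directions. Among cysteine-rich receptor-like kinases, a family of membrane proteins induced in defence, 8 of 40 were called higher and 2 lower. The shares of all genes were 5.21% and 7.69%. The kinase median was 0.46, with 13 higher and 3 lower at an adjusted p under 0.05 alone. The largest were CRK23 (2.60), CRK37 (2.05) and CRK8 (1.97), while CRK29 (-1.48) and CRK42 (-1.37) were lower. Of 54 WRKY factors, 8 were called higher and 6 lower, beside the same shares of all genes. At an adjusted p under 0.05 alone, 9 WRKY factors were higher and 14 lower. WRKY60 had 669, 729 and 663 against 48.1, 53.8 and 96.9 (log2 difference 3.37, edgeR adjusted p = 3.12e-06), and WRKY70 and WRKY54, which act in the salicylic acid pathway, differed by 1.52 and 1.93. WRKY40, WRKY48 and WRKY22 were lower (-1.60, -1.67 and -1.62). Without GLDT::NAC052 replicate 3, 14 kinases and 16 WRKY factors were called higher, and the WRKY40 call was lost.

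RBOHD, the oxidase that makes the defence oxidative burst, had 2433, 2118 and 2669.8 against 781, 888 and 1427 (log2 difference 1.22, edgeR adjusted p = 0.000422). CML41, a calmodulin-like protein, had 1812, 3033 and 4198 against 102, 126 and 217, and CAX3, a vacuolar calcium exchanger, had 5196, 4030.2 and 6148 against 92.5, 132 and 202 (log2 difference 5.17, edgeR adjusted p = 3.07e-05). In both genes every CRISPR library was at least 8-fold above every GLDT::NAC052 library. PUB22, a ubiquitin ligase that dampens immunity, went the other way with 40.5, 55.9 and 64.3 against 209.5, 298 and 536 (log2 difference -2.69, edgeR adjusted p = 0.00024).

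Ethylene genes were lower in the CRISPR line in 6 of 15 tested cases and higher in 0. ETR2, a receptor, had 19.2, 19.5 and 16.3 against 198, 166 and 272 (log2 difference -3.52, edgeR adjusted p = 2.15e-05), and ACS8, a synthase of the precursor, had 94.1, 70.3 and 198 against 834, 1051 and 1137 (log2 difference -3.06, edgeR adjusted p = 4.42e-05). The response factor RAP2.6 had 4, 33.9 and 3.6 against 1665, 1911 and 3575 and its relative ABR1 4, 22 and 9.1 against 1858, 2639 and 3676, 2 of the 10 largest differences in this direction. EBF2, which removes the ethylene factor EIN3, differed by -1.65.

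Genes of auxin conjugation and Aux/IAA repressors shared that direction. Of 7 genes that conjugate or methylate auxin, 6 were called lower in the CRISPR line, with a median of -2.03. GH3.3, which joins auxin to amino acids, had 298, 313 and 573 against 3072, 2454 and 3469.9 (log2 difference -2.93, edgeR adjusted p = 1.96e-05), and IAMT1, the methyltransferase, had 22.3, 12.7 and 34.4 against 271, 204 and 271 (log2 difference -3.42, edgeR adjusted p = 5.52e-06). Of 28 Aux/IAA repressors, which are induced by auxin, 10 were called lower and 0 higher. IAA29 had 568, 423 and 1010.4 against 2614, 2706 and 2411, and IAA5 and IAA3 (SHY2) differed by -2.31 and -2.07. The auxin-induced SAUR genes were called lower in 7 and higher in 1 of 56 cases, against a background of 7.69% and 5.21%, and without CRISPR replicate 2 only 4 were called lower.

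The gibberellin 2-oxidases GA2OX6 and GA2OX8, which inactivate gibberellin, were chosen after their values were seen. GA2OX6 had 32.4, 41.5 and 66.2 against 2105, 2592 and 3264 (log2 difference -5.82, edgeR adjusted p = 1.97e-06) and GA2OX8 2, 0 and 0 against 25.4, 62.1 and 23.8. The synthesis gene GA20OX2 was lower as well (log2 difference -2.01). For cytokinin, the degrading oxidase CKX5 had 137, 88.1 and 137 against 1164, 1666 and 1712 (log2 difference -3.65, edgeR adjusted p = 1.73e-06), and 3 of 6 oxidases and 3 of 8 type-A response regulators were called lower, the regulators being ARR6, ARR7 and ARR15. Limma called only 1 of the regulators and 2 of the oxidases.

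Secondary wall genes and xylem markers were lower in the CRISPR line. VND7, the NAC factor that starts vessel formation, had 2, 9.3 and 8.2 against 23.6, 25 and 24.7 (log2 difference -1.86, edgeR adjusted p = 0.0021). The vessel proteases XCP1 and XCP2 had 149, 316 and 325 against 693, 836 and 723 and 487, 617 and 745 against 1740.4, 1716 and 1654. All 4 xylem markers (these 3 and CESA7) were called, the median being -1.49, and their summed scaled counts ranged from 741 to 1246 in the CRISPR libraries and from 2709 to 2934 in the GLDT::NAC052 libraries, with no marker at 0. The 3 cellulose synthases of the secondary wall, CESA4, CESA8 (IRX1) and CESA7, the last of which is thus counted in both groups, differed by -1.02, -1.40 and -1.39, and no other of the 9 tested was called. FLA11, a fasciclin-like arabinogalactan protein of the secondary wall, differed by -1.26, with 3 of 15 of its family called lower. The part that the amount of xylem had in these wall genes was not tested. In the GLDT::5'truncatedNAC052 line XCP2 had 1801, 2014 and 1704 and in the reference line 1827, 1869 and 2159, at or above the level of the GLDT::NAC052 line.

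Alpha-expansins, which loosen the primary wall, were called in both directions, 3 higher and 3 lower of 14. EXPA1 had 9880.1, 12751 and 16300.4 against 4860.2, 5098 and 3697 (log2 difference 1.51, edgeR adjusted p = 0.000241), whereas EXPA16 had 580.1, 482 and 669 against 2850.4, 2411 and 2689.7 (log2 difference -2.20, edgeR adjusted p = 1.35e-05). Of 23 xyloglucan endotransglucosylases, which cut and rejoin the wall's xyloglucan, 5 were called lower, among them XTH18 (-3.22) and XTH32 (-2.00), and XTH7 was called higher (1.17).

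Cuticular wax genes were lower in the CRISPR line in 7 of 15 cases, with none higher and a median of -0.87. MYB96, the factor that activates wax synthesis under drought, had 362, 298 and 369 against 1479, 2608 and 2528 (log2 difference -2.68, edgeR adjusted p = 2.6e-06). KCS2, which elongates fatty acids, and WSD1, a wax ester synthase, had 34.4, 20.3 and 15.4 against 442, 219 and 225 and 7.1, 11 and 10 against 221, 167 and 73.2. CER2, which extends the chains further, differed by -2.23 with an edgeR adjusted p of 8.85e-07. The lipid transfer protein LTP2, chosen after its values were seen, had 11.1, 35.6 and 23.6 against 1221, 1387 and 1451. Epidermis markers held no called member, their summed scaled counts being 7969.9 to 8471 in the CRISPR and 10881 to 12128 in the GLDT::NAC052 libraries.

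**Figure D3:**
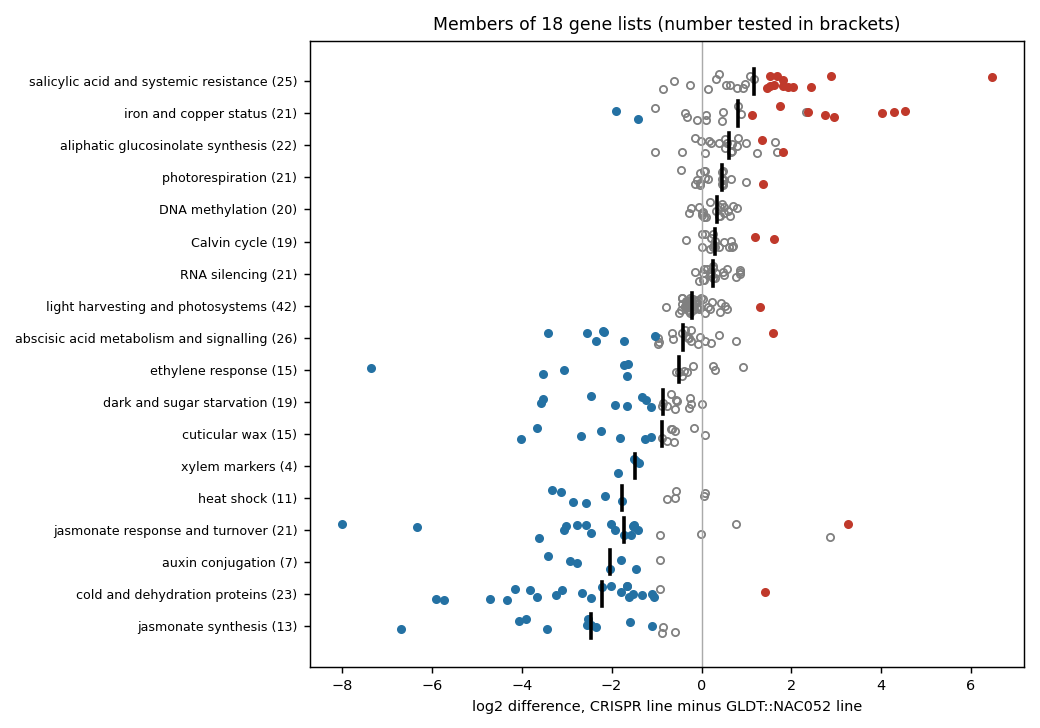
Log2 difference (CRISPR minus GLDT::NAC052, x axis) of every tested member of 18 gene lists, with the number tested in brackets. Red points are members called higher in the CRISPR line, blue points members called lower, open circles members not called, and black bars list medians, which run from 1.17 for salicylic acid genes to -2.46 for jasmonate synthesis.

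Photosynthesis differed little. Of 42 light harvesting and photosystem genes, 1 was called higher in the CRISPR line and 0 lower, with a median of -0.20. The called gene was LHCA6, a minor light harvesting protein (4295, 4329 and 4527 against 1959, 2296 and 1108). At an adjusted p under 0.05 alone 3 members were higher and 6 lower, beside 20.5% and 20.9% of all genes. Of 19 Calvin cycle genes, RBCS1B, a small subunit of Rubisco, and CP12-2, a regulator of the cycle, were called higher, with RBCS1B at 31368, 32529 and 29704 against 11829, 10276 and 8597 (log2 difference 1.61, edgeR adjusted p = 6.11e-06). The list's median was 0.30, and 9 of its members had an adjusted p under 0.05 whatever the fold, all higher in the CRISPR line, beside 20.5% of all genes.

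In photorespiration, 1 of 21 genes was called, and 10 were higher and 1 lower at an adjusted p under 0.05 alone, beside 20.5% and 20.9% of all genes. The called gene was GLDP1, the P protein of the glycine decarboxylase complex, with 30474, 39472 and 40336 against 15726, 16797 and 10008 (log2 difference 1.37, edgeR adjusted p = 7.72e-05). Its paralogue GLDP2 had 12299.5, 13036 and 13886 against 7586, 6896 and 5283, a difference of 0.99 that lay just under the 2-fold limit (edgeR adjusted p = 0.000259). The reference line had 23967, 26671 and 30319.9 for GLDP1. The libraries of the lines did not overlap for either gene. SULTR2;2, a sulfate transporter and 1 of 3 bundle sheath markers, had 458, 561 and 682 against 184, 168 and 107 (log2 difference 1.89, edgeR adjusted p = 1.77e-05). The other markers were not called and went in opposite directions, with log2 differences of 0.23 and -1.03.

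Aliphatic glucosinolate genes, which make defence compounds from methionine, were called higher in 2 of 22 cases, beside 5.21% of all genes. The called genes were IMD1 and GSTU20, and the median was 0.61. For most other members the libraries of the lines overlapped. In the indole branch MYB34 and MYB51, which both activate it, differed in opposite directions. MYB34 had 350.3, 356 and 299 against 1013, 1789 and 1654 (log2 difference -2.15, edgeR adjusted p = 0.000196), and MYB51 had 1064, 694 and 1076 against 268, 286 and 753 (log2 difference 1.12, edgeR adjusted p = 0.0236). The MYB51 call was lost when CRISPR replicate 1 or 3 or GLDT::NAC052 replicate 1 or 2 was left out, with edgeR adjusted p between 0.067 and 0.0911. Cytosolic ribosomal proteins held 1 called gene of 204 and flavonoid genes none of 10 by edgeR or DESeq2 and 1 by limma, with 4 higher and 2 lower at an unadjusted p under 0.05. The edgeR counts at an adjusted p under 0.05 alone were 79 higher and 5 lower for the ribosomal proteins and 2 and 2 for the flavonoid genes. Over all genes these shares were 20.5% higher and 20.9% lower.

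MEX1, the chloroplast envelope exporter of maltose at night (AT5G17520, chr5:5772568-5775417, in RefSeq TAIR10.1), differed most among the starch and maltose genes. It had 13.2, 15.2 and 5.4 in the CRISPR libraries and 1048, 1429 and 1009 in the GLDT::NAC052 libraries (log2 difference -6.67, SE 0.31, edgeR adjusted p = 4.89e-08). The GLDT::5'truncatedNAC052 line had 1651, 1691 and 980.5 and the reference line 1326, 1713 and 1475, so that only the CRISPR line was low. Its nearest tested neighbours on the chromosome, AT5G17510 and AT5G17530, differed by -0.10 and -0.31, and neither was called, although CRISPR replicates 1 and 3 were low for AT5G17530 (722, 1454 and 768 against 1249.7, 1296 and 1098). The next tested genes beyond AT5G17510, RGL3 and AT5G17460, were called lower in the CRISPR line (-3.09 and -3.69). The beta-amylases BAM3 and BAM5, which release maltose, were lower too (-1.53 and -3.02), and no other of the 31 starch and maltose genes tested was called. Most of the list lay the other way by less than 2-fold, with a median of 0.40, 22 members above 0, and 14 higher and 4 lower at an adjusted p under 0.05 alone, beside 20.5% and 20.9% of all genes. AMY1, an alpha-amylase chosen after its values were seen, had 583, 786 and 735 against 52.6, 64 and 34.8.

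Genes of dark and sugar starvation were lower in the CRISPR line in 8 of 19 cases. SEN1 had 3029.8, 1391 and 2770.3 against 35762, 19248 and 30663 (log2 difference -3.58, edgeR adjusted p = 1.45e-06), and ASN1, an asparagine synthetase, had 9618, 3084 and 3876 against 22370.1, 18103 and 22188 (log2 difference -1.92, edgeR adjusted p = 0.00237). In senescence the list divided, with 3 members called each way. SAG13 had 2342, 1636 and 2140.5 against 155, 97.4 and 456 (log2 difference 3.11, edgeR adjusted p = 0.000319), while the NAC factors NAP and ORE1 that promote senescence differed by -1.60 and -2.14. RNS1, a ribonuclease, had 80, 158 and 39.9 against 1257, 2446 and 1954.

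**Figure D4:**
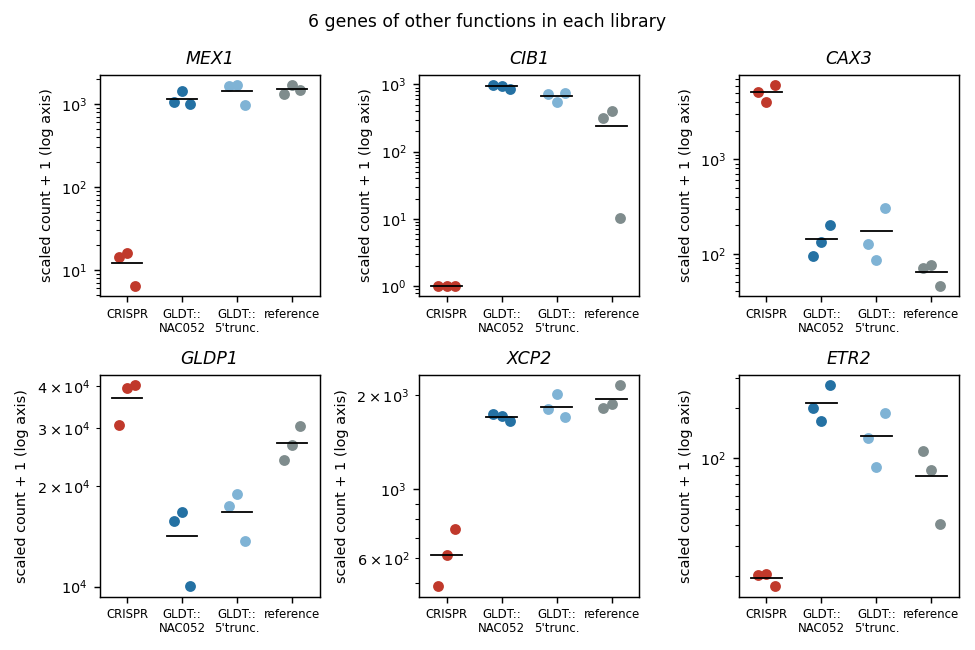
Scaled counts plus 1 (log axis) per library for MEX1, CIB1, CAX3, GLDP1, XCP2 and ETR2, with 1 point per library and the line mean as a bar. The CRISPR libraries are below the libraries of the 3 other lines for MEX1, CIB1, XCP2 and ETR2 and above them for CAX3.

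Genes of iron and copper status were more often higher than lower in the CRISPR line, with wide spread between its libraries. Of 21 tested, 8 were called higher and 2 lower. FRO2, an iron reductase outside this list, was called lower (line means of 9.6 against 54.4, log2 difference -2.48, edgeR adjusted p = 0.000805). The bHLH factors of group Ib, which switch on iron uptake, led the list. BHLH38 had 87.1, 119 and 13.6 against 0, 0 and 11 (log2 difference 4.28, edgeR adjusted p = 0.0212) and BHLH39 52.6, 103 and 11.8 against 3.6, 0 and 6.4. CRISPR replicate 3 was the lowest of its line in both. The reference line had 98, 98.8 and 298 for BHLH38, its libraries differing among themselves as well. Without CRISPR replicate 2 or GLDT::NAC052 replicate 2, 3 members were called higher, and without GLDT::NAC052 replicate 1 5. The iron transporter OPT3 was steadier, with 4826, 6501 and 4250.2 against 2757, 1904 and 2509.6 (log2 difference 1.12, edgeR adjusted p = 0.000902). FER1, the iron store ferritin, was lower (-1.41), but its call was lost when any single library other than CRISPR replicate 3 was left out.

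Heat shock genes were called lower in 6 of 11 cases, and the spread lay in the GLDT::NAC052 line. HSP90-1, a chaperone, had 444, 558 and 423 against 2169, 900.4 and 5415 (log2 difference -2.57, edgeR adjusted p = 0.00341), and HSFA2, a heat shock factor, had 61.8, 64.4 and 39 against 376, 96.4 and 965 (log2 difference -3.12, edgeR adjusted p = 0.00509). GLDT::NAC052 replicate 2, the library with the lowest NAC052 count of its line, was also the lowest of its line for both genes. For LOX3 and AOS, given above, the same library was the highest of its line. A relation to the NAC052 count was not tested. Without replicate 2, 7 heat shock members were called lower, and without replicate 3, the highest for HSP90-1 and HSFA2, 4 were. HSFA2 was called in both of these fits.

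Clock genes held 1 called member in each of 2 lists, beside 12.9% of all genes called. Of 11 morning genes, LHY was called higher (138, 230.4 and 169 against 63.5, 65.8 and 101) and none lower, and of 12 day and evening genes, BOA was called lower (80, 72.8 and 96.1 against 268, 201 and 239.6). At an adjusted p under 0.05 alone, 1 morning gene was higher and 3 lower. For day and evening genes the numbers were 2 and 5, beside 20.5% and 20.9% of all genes. CCA1, the partner of LHY, differed by -0.06 with overlapping libraries. Of 23 flowering time genes, 2 were called higher and 2 lower, beside 5.21% and 7.69% of all genes. At an adjusted p under 0.05 alone, 4 were higher and 9 lower, beside 20.5% and 20.9%. MAF5, a repressor of the FLC family, and FUL, a floral meristem factor, were higher, with MAF5 at 1493, 1337 and 1401 against 477, 445 and 582 (log2 difference 1.49, edgeR adjusted p = 0.000347). CDF1 and CDF5, which hold back CONSTANS, were lower (-1.01 and -1.11).

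RNA silencing and DNA methylation, the functions tied to the NAC052 and JMJ14 module, held no gene past the 2-fold limit. Of 21 silencing genes none was called in either direction by edgeR, DESeq2 or limma. In edgeR 12 were higher in the CRISPR line and none lower at an unadjusted p under 0.05, and 9 were higher at an adjusted p under 0.05 alone, beside 20.5% of all genes. SGS3, which stabilises the RNA template, had 507, 661 and 584 against 356, 377 and 236 (log2 difference 0.85, edgeR adjusted p = 0.00167). AGO7, an Argonaute of the trans-acting small RNA pathway, differed by 0.86, HEN1, which methylates small RNAs, by 0.85, and DCL4, a Dicer, by 0.51, each without overlap. In this list 14 of 21 genes did not overlap, beside 53.0% of all genes. RDR6, the polymerase that makes the double strand, differed by 0.21 (edgeR adjusted p = 0.0652). Of 20 DNA methylation genes none was called by any of the 3 tools. In edgeR 9 were higher and 1 lower at an unadjusted p under 0.05, and 7 were higher at an adjusted p under 0.05 alone, among them the maintenance methyltransferase MET1 with 1068, 992 and 856 against 704, 758 and 599 (log2 difference 0.50, edgeR adjusted p = 0.00169) and VIM3 (0.79).

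The NAC family itself was called often. Of 69 tested, 9 were called higher in the CRISPR line and 22 lower, NAC052 among the latter. NAC019, which acts in jasmonate and abscisic acid signalling, had 132, 149 and 119 against 1198, 1894 and 3023 (log2 difference -3.93, edgeR adjusted p = 1.23e-05), and RD26, a factor of the same pathways, had 614, 664 and 654 against 2290.0, 2978 and 3664 (log2 difference -2.21, edgeR adjusted p = 7.28e-06). NAC036 had 3122, 2903 and 3900.4 against 369, 561 and 859.7 (log2 difference 2.47, edgeR adjusted p = 0.000185), the largest in the other direction together with NAC004 (2.47) and NAC061 (2.45). Without CRISPR replicate 1, 14 were called lower.

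Glutathione S-transferases and UDP-glycosyltransferases were called in both directions, beside 5.21% of all genes called higher and 7.69% lower. Of 31 tau and phi glutathione S-transferases, 9 were called lower and 5 higher, the extremes being GSTU6 (17.2, 27.1 and 28.1 against 419.9, 613 and 1174) and GSTU8 (141, 170.3 and 156 against 9.1, 6.5 and 58.5). Without GLDT::NAC052 replicate 1 or replicate 2, 3 were called higher. GSTU17 (ERD9) had 478, 695 and 412 against 7757, 11032 and 11467 (log2 difference -4.25, edgeR adjusted p = 6.68e-06). Of 80 UDP-glycosyltransferases, 15 were called lower, with UGT76E2 at -5.07 and UGT84A1 at -4.46, and 5 higher, with AT2G36780 at 3.28. By annotation the 15 include MGD1, a monogalactosyl diacylglycerol synthase, and IAGLU, a glucosyltransferase of the auxin indole-3-acetate. Without GLDT::NAC052 replicate 3, 9 were called higher.

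The 10 largest differences in each direction, among called genes whose libraries did not overlap and whose higher line averaged at least 1 CPM, included genes that one line hardly expressed. CIB1 (AT4G34530, chr4:16498391-16500174, in RefSeq TAIR10.1), a bHLH factor that binds the blue light receptor cryptochrome, was at 0 in all 3 CRISPR libraries and at 993, 959 and 859 in the GLDT::NAC052 libraries, which is at least 339-fold lower in the CRISPR line when each CRISPR library is set to 3 counts. The GLDT::5'truncatedNAC052 line had 710.0, 546 and 754 and the reference line 315, 403 and 9.4, where replicate 3 was far below the other two. KCS17, the tested gene before CIB1, was not called (log2 difference -0.78). AT4G34540 is annotated on the same strand at chr4:16498391-16502174, a span that holds all of CIB1. The counting could therefore have divided some reads between them. AT4G34540 was not called either (log2 difference -0.41). AT2G22880, AT4G38410 and AT4G10290 were also at 0 in the CRISPR libraries, with 185, 433 and 650.3, 25.4, 22.3 and 106 and 19, 59.3 and 51.2 in the GLDT::NAC052 libraries, which is at least 153-fold, 18.5-fold and 15.6-fold lower. The reference line was near 0 as well, with 0 in all 3 libraries for AT2G22880, 4, 3.4 and 3.5 for AT4G38410 and 0, 0 and 4.7 for AT4G10290. AT4G38410 is annotated as a dehydrin and AT2G22880 as a VQ motif protein.

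The others of the 10 lower genes were CYP94B3, ABR1 and RAP2.6, given above, CYP94B1, ILL5 and AT1G32910. CYP94B1, a further jasmonate hydroxylase, had 3, 8.5 and 6.3 against 376, 977 and 1356 (log2 difference -7.18, edgeR adjusted p = 0.000506). ILL5, a member of the hydrolases that free auxin from amino acids, had 0, 0.8 and 0 against 17.2, 299.5 and 204, and AT1G32910 had 0, 0.8 and 0 against 35.4, 61.2 and 44.8. Jasmonate turnover thus supplied 2 of the 10.

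Among the 10 higher genes, AT5G63225 was at 0 in all GLDT::NAC052 libraries and at 118, 51.7 and 51.7 in the CRISPR libraries, at least 26.9-fold higher. AT2G44240 had 362, 127 and 556 against 0, 2.8 and 0, and AT4G10860 89.1, 32.2 and 53.5 against 0, 0.9 and 2.7. The cell wall invertase relative cwINV6 had 572, 307 and 704 against 5.4, 5.6 and 26.5 (log2 difference 5.38, edgeR adjusted p = 0.000121). LAS1, lanosterol synthase, had 305, 407 and 516 against 7.3, 13.9 and 11.9 (log2 difference 5.20, edgeR adjusted p = 8.58e-07), and CYP76C5, a cytochrome P450, had 204, 108 and 206 against 1.8, 5.6 and 10.1. AT1G65483 had 270.3, 121 and 178 against 0.9, 4.6 and 9.1, and PR1 and CAX3 were given above. CPSUFE, a plastid sulfur carrier activator, had 246, 643 and 239 against 0, 29.7 and 0, but its libraries were as uneven within the reference line (0, 164 and 498), and limma did not call it.

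Promoters were searched for 3 motifs, from 250 bases before to 50 after the gene start of RefSeq's TAIR10.1 annotation, on both strands, for 19566 tested genes. The inverted half-sites CTTG and CAAG with 5 bases between them, a motif described for NAC050 and NAC052, were present in 0.783% of promoters called higher, 0.596% called lower and 0.639% of all. CACGTG, the G-box bound by bHLH and bZIP factors, was present in 13.8% of promoters called lower (209 of 1510), 6.95% called higher (71 of 1022) and 8.84% of all. Of the cold and dehydration promoters, 7 of 23 held it, and of the salicylic acid promoters 2 of 25. AAAATATCT, the evening element of the clock, was present in 4.7%, 3.23% and 3.1% in the same order. These shares are descriptions, and a match is not a bound site. The G-boxes of genes from each side are printed on the gene's strand, with the motif in capitals, first 4 genes lower in the CRISPR line and then 2 higher.
AOS: tcaaagCACGTGgctaaa
GOLS3: ttaggcCACGTGgcatta
RD20: aataacCACGTGgatgga
RAP2.6: atttccCACGTGtcacta
BHLH38: cttcgaCACGTGccaacc
PR2: attaaaCACGTGtgtctt
They lie at chr5:17099590-17099607, minus strand (AOS), chr1:3019537-3019554, plus strand (GOLS3), chr2:14146612-14146629, minus strand (RD20), chr1:16263716-16263733, plus strand (RAP2.6), chr3:21085331-21085348, minus strand (BHLH38) and chr3:21190087-21190104, minus strand (PR2). AOS, GOLS3, RD20 and RAP2.6 differed by -2.52, -5.91, -4.14 and -7.35, and BHLH38 and PR2 by 4.28 and 2.43.

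The GLDT::5'truncatedNAC052 line lay closer to the GLDT::NAC052 line than to the CRISPR line by the number of genes called. Against it 669 genes (3.40%) were called higher and 920 (4.68%) lower in the CRISPR line, and 292 (1.49%) higher and 53 (0.270%) lower in the GLDT::NAC052 line. Both comparisons use the same 3 GLDT::5'truncatedNAC052 libraries. For salicylic acid genes, xylem markers and auxin conjugation the medians against that line were 1.89, -1.64 and -2.03 for the CRISPR line and 0.37, -0.11 and 0.25 for the GLDT::NAC052 line. For jasmonate synthesis they were -0.83 and 1.89, so that there the GLDT::NAC052 line was the more distant. These groups were picked from the lists described, and other lists lay either way. The GLDT::NAC052 line was also the more distant for jasmonate response (-0.38 and 1.19) and heat shock genes (-0.76 and 1.00). The CRISPR line was the more distant for cold and dehydration genes (-1.81 and 0.56). These differences in distance were not tested.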

How the data were processed

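The authors prepared stranded mRNA libraries from rosette RNA, sequenced single reads, trimmed them and mapped them with CLC Genomics Workbench to TAIR10, and deposited a table of raw read counts per gene. Whether counting used strand is not given in the sources used here. Of the table's columns, 15 were matched to samples by their labels and 6 that belong to no described sample were not used. Of 32833 genes listed, 23752 had a count and 32548 were in RefSeq's TAIR10.1 annotation, from which symbols were taken.

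From the deposited counts, edgeR (version 4.0.16, R 4.3.3) was fitted to all 15 libraries with 1 term per line, TMM scaling, filterByExpr and the quasi-likelihood test, with Benjamini-Hochberg adjustment over 19663 genes. DESeq2 (version 1.42.0) and limma (version 3.58.1) were alternatives, besides those named in the closing section. On simulated counts for the CRISPR against GLDT::NAC052 comparison (19506 genes, 200 of them changed), the fit recovered 97% of the 4-fold and 83% of the 2.5-fold changes, with 6 false calls.

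Named genes are NAC052, NAC050 and JMJ14, the key genes and up to 5 most changed called members of each list described, and the 10 largest rises and falls among called genes with no overlap and at least 1 CPM in the higher line. Other list members and genes were chosen after their values were seen. The members and the gene lists were chosen with earlier results of these data known. No set test was run. Interval limits do not apply, since no share of a library is reported, and depth is given as the total count per library.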

Additional observations from a re-analysis of the deposited data

How the results depend on the processing

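The number of called genes stayed within 1.5 times 2537 under every alternative except the removal of the 2-fold limit, under which 8146 genes passed, 4027 higher and 4119 lower in the CRISPR line. Leaving out each of the 6 libraries in turn gave 2313 to 2511 calls, 929 to 1092 higher and 1384 to 1489 lower. DESeq2 called 2580 genes, 2505 of them shared with edgeR, and limma 2617 with 2428 shared. Scaling by library totals alone moved the median of all genes by 0.066 on the log2 scale and the share of calls higher in the CRISPR line from 40.36% to 46.72%. The labels give both lines replicate numbers 1 to 3, but deviations from the line means correlated at only -0.021, 0.16 and 0.028 between same-numbered libraries, so that the numbers were not taken to pair them. A fit with a replicate block called 2560 genes, 1057 higher and 1503 lower, 2477 of them shared, and under it FER1 lost its call (edgeR adjusted p = 0.054). No result changed sign with a call under any alternative run.

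Where a line had 0 counts in all 3 libraries, as for CIB1, depth allowed only a lower bound of the fold. Where at least 10 counts were required in every library, 1905 genes were called, and the counts for several lists fell by more than 1.5 times because fewer genes were tested, a filter that also removes genes for being near 0 in one line: from 7 to 3 lower for abscisic acid, from 8 to 3 higher for iron and copper status, from 8 to 4 higher for WRKY factors, from 9 to 4 higher for NAC factors, from 7 to 2 lower for SAUR genes, from 5 to 3 lower for xyloglucan endotransglucosylases, from 5 to 3 higher for glutathione S-transferases and from 15 to 8 lower for UDP-glycosyltransferases. Limma called 3 iron and copper genes and 14 WRKY factors higher, and it did not call CPSUFE or ILL5, and the cause was not tested. The lines cannot be told apart from their single transgene events, and both were sequenced on 1 lane, so that no other batch could be compared.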
